A study of Mus musculus with 6 samples.

Results

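Muscle atrophy ubiquitin ligases are enzymes linked to muscle wasting, and many of them mark muscle proteins for breakdown. Their transcripts were followed here in mouse muscle that received the transcription factor TFEB. The group held 8 genes, Fbxo32 (atrogin-1), Trim63 (MuRF1), Trim54 (MuRF3), Nedd4, Traf6, Mdm2, Cblb and Stub1 (CHIP), out of 12393 genes named on the array. A probe set, a group of short probes that together give 1 value per array, was assigned to a ligase only where the ligase was its sole gene symbol in the platform annotation. By this rule 6 of the 8 genes were read, by 13 probe sets of 22626 tested, and the transcripts of Trim63 and Cblb were not analysed here. The rule uses no measured value, though the ligases were chosen with earlier results of these data known.

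Total RNA of skeletal muscle of wild-type C57BL/6 mice was hybridised to 6 Affymetrix expression arrays. Each array is taken here as a separate mouse, an inference from the study's text, by which a mouse received 1 virus or the other. The muscle of 3 mice had been injected with an adeno-associated virus (AAV) carrying murine Tfeb (called Tcfeb in the labels; TFEB overexpression), and the muscle of the other 3 with the same kind of virus for green fluorescent protein, GFP (GFP control). All 6 muscles had thus received a virus, injected into the muscle and driven, per the study's text, by the CMV promoter, which is active in many cell types and not in muscle fibres alone. The labels give an age of 1 month, but the study's text calls the mice adult. They call the arrays biological replicates and name neither the muscle nor the time from injection to sampling, which the study's text gives as 3 weeks.

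Ubiquitin is passed from an activating enzyme to a conjugating enzyme and then, by a ligase, to a target protein. The target is often degraded, though some ubiquitin chains are non-degradative. The ligase gives the pathway its choice of substrate. In skeletal muscle, Fbxo32 and Trim63 are known for their induction in fasting, denervation and disuse, where forkhead factors of the FoxO family drive both genes. Trim54 is a relative of Trim63 that binds microtubules and the sarcomere, Nedd4, Traf6 and Cblb act on receptors and signalling proteins, Mdm2 holds down p53, and Stub1 works with heat shock proteins on misfolded clients.

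The bases upstream of 3 of these genes are shown because the genes differed in their response and because each window holds a motif of a factor relevant to the study. RefSeq promoter entries on GRCm38.p6 were found for 7 of the 8 genes, and Fbxo32 had none. Each window runs 5′ to 3′ along the gene and covers the 250 bases just upstream of the annotated start, outside the transcript. Capitals mark CACGTG, the E-box at the core of the element that TFEB is known to bind, GTAAACA, a forkhead motif, and CAGCTG, an E-box bound by myogenic factors. The windows are those of Trim54 (chr5:31116362-31116611, plus strand), Mdm2 (chr10:117710759-117711008, minus strand) and Stub1 (chr17:25832920-25833169, minus strand).
Trim54: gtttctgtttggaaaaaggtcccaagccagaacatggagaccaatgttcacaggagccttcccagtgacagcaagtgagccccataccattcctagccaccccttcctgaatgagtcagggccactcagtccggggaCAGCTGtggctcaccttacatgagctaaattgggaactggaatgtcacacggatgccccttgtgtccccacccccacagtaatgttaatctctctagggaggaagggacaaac
Mdm2: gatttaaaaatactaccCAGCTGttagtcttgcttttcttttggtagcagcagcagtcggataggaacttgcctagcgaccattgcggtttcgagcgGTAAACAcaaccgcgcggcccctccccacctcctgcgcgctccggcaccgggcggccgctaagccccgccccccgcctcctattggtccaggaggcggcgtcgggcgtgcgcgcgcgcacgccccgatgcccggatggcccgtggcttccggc
Stub1: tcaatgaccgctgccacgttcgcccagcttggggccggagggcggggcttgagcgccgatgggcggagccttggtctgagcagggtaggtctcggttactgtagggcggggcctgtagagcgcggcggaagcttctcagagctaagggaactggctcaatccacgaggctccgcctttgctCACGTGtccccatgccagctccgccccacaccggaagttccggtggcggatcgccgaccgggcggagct
Both strands were searched, and the motifs did not overlap each other. Among the measured genes with an entry, CACGTG was found only in the Stub1 window, 69 to 64 bases before the start, while 6.02% of 32851 promoter windows of this length hold it. GTAAACA was found in the Mdm2 window, 153 to 147 bases before the start, against 3.17% of all windows. The window of Trim63, which had no probe set by the rule above, also held GTAAACA (194 to 188) and CAGCTG (72 to 67). CAGCTG stood in the Trim54 window (113 to 108 bases before the start) and the Mdm2 window (233 to 228), against 13.0% of all windows. Nedd4 has a pair of start sites in the annotation, and CAGCTG lay at the second of them. These matches describe letters and do not show that a factor binds there.

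Some facts of the whole series bear on the values below. Any pair of TFEB arrays differed over 2-fold at 45 to 101 probe sets, whereas GFP control replicate 2 differed over 2-fold from the other controls at 844 and 725 probe sets. The probe set of Tfeb itself was lower in the TFEB group (difference of log2 means -0.77 ± 0.097 SE, limma adjusted p = 0.0024). No source at hand places that probe set relative to the viral cDNA, and it therefore checks no label. Markers of skeletal muscle fibres had similar mean levels in the groups (mean log2 value 13.7 with GFP, against 13.7 to 13.8 with TFEB, with 0 of 10 past the threshold), so the defining markers of the labelled tissue were present. These probe sets lie near the top of the range, where changes are compressed. Short of the fold limit, Myh1 (0.45, limma adjusted p = 0.011) and Myh2 (0.32, adjusted p = 0.038) were higher and Actn3 (-0.27, adjusted p = 0.020) was lower. All 9 measured markers of embryonic and regenerating muscle rose. Macrophage markers had a mean of 6.99, 8.89 and 7.10 in GFP control replicates 1, 2 and 3, against 8.25 to 9.09 with TFEB, and 1 of 11, Cd68, passed. Of 7 fibroblast markers 4 rose, their mean which was 9.91 to 10.01 with GFP, being 10.8 to 11.2 with TFEB. The 3′ minus 5′ difference of the beta-actin control probe sets, a sign of RNA integrity, was 0.037 to 0.077 with GFP and 0.22 to 0.34 with TFEB. The part of these shifts in the results below was not tested, and in whole muscle fewer cells of a type and less RNA per cell cannot be told apart.

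The question was which of the ligase transcripts differed between muscle with TFEB and muscle with GFP. Trim54 fell 1.96-fold. Mdm2 and Fbxo32 were each lower on both of their probe sets, and each passed the threshold on 1 of 2. Nedd4, Traf6 and Stub1 did not pass the threshold. No ligase rose. A probe set was called past the threshold at a limma adjusted p under 0.05 and a change of at least 1.5-fold. By this rule 3 of the 13 ligase probe sets were lower and 0 were higher, beside 6.11% lower and 7.51% higher among all 22626 probe sets. With no fold limit, 5 were lower and 1 was higher, beside 18.1% and 14.5%. The groups did not overlap at 8 of the 13, of which 7 were lower and 1 was higher, beside 49.9% of all probe sets (29.7% lower and 20.1% higher). The median log2 fold change was -0.35 over the 13 probe sets and -0.06 over all probe sets. With each gene read by its probe set of highest mean, the median was -0.22 over the 6 ligases and -0.05 over all genes. The number of ligase probe sets is small, and several of them read the same gene, so these shares describe 6 genes only.

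**Figure D1:**
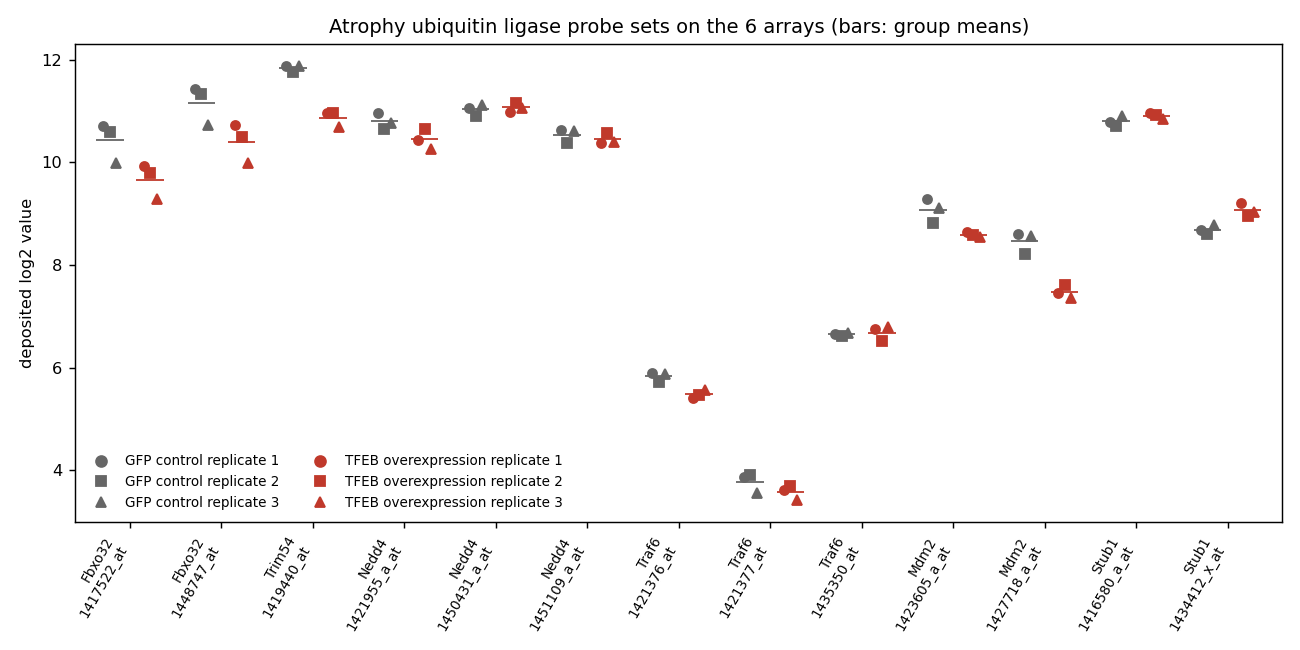
The log2 value of every array (vertical axis) is plotted for the 13 probe sets of the 6 measured ligases, with GFP control and TFEB overexpression side by side (n = 3 arrays each), each point 1 array, its symbol the replicate number, and the bar the group mean. The 3 TFEB points of Trim54 (10.70 to 10.97) lie clear of the 3 GFP points (11.77 to 11.89), whereas those of Fbxo32 come close to the lowest GFP array.

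Trim54 gave the clearest difference among the ligases. Its log2 values were 11.88, 11.77 and 11.89 in GFP control replicates 1 to 3 and 10.95, 10.97 and 10.70 in TFEB overexpression replicates 1 to 3. All 3 TFEB arrays were lower than all 3 GFP arrays, with a gap of 0.80 between the nearest pair, and the GFP arrays lay close together. The log2 fold change was -0.97 ± 0.096 (SE, n = 3 and 3, 95% interval -1.20 to -0.74), a 1.96-fold fall (limma adjusted p = 0.0012). Trim54 was past the threshold in all 16 alternative analyses, with a log2 fold change between -1.04 and -0.88. It was the sole symbol of a single probe set, and probe sets with several symbols or none were not examined. Alternatives that pick or average the probe sets of a gene therefore could not change the fold change of Trim54. Trim54 lies on chromosome 5 (31116612 to 31137626 in RefSeq on GRCm38.p6).

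Fbxo32, the F-box subunit of the ligase complex SCF known as the leading atrophy marker, was lower in the TFEB arrays by 1.69-fold and 1.71-fold on its probe sets. The probe set 1448747_at read 11.42, 11.33 and 10.73 in the GFP arrays and 10.73, 10.50 and 9.98 in the TFEB arrays. The lowest GFP array, replicate 3, and the highest TFEB array, replicate 1, differed by 0.00017, so the groups touched without overlapping. The difference of means was -0.76 ± 0.25 (SE, 95% interval -1.34 to -0.17), and it missed the threshold (limma adjusted p = 0.055). The probe set 1417522_at read 10.72, 10.60 and 9.995 in the GFP arrays and 9.92, 9.79 and 9.29 in the TFEB arrays. Here the nearest arrays of the groups were 0.073 apart, and replicate 3 was again the lowest array of each group. Its log2 fold change was -0.77 ± 0.24 (SE, 95% interval -1.33 to -0.21), a 1.71-fold fall just past the threshold (limma adjusted p = 0.046).

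The readings of Fbxo32 by its probe sets followed each other over the 6 arrays (Pearson r = 0.997, a description over arrays that share their 2-group structure). After the group means were taken off, r was 0.993, so the spread between mice was read alike by both. The difference between the probe sets moved by -0.01 with TFEB ( exact permutation test, two-sided, p = 0.90, where 3 against 3 arrays allow no p under 0.10). The call on Fbxo32 depended on single arrays. For 1417522_at it was lost without GFP control replicate 1 (-0.63, adjusted p = 0.13), GFP control replicate 2 (-0.69, adjusted p = 0.068), TFEB overexpression replicate 1 (-0.90, adjusted p = 0.059), replicate 2 (-0.83, adjusted p = 0.088) or replicate 3 (-0.58, adjusted p = 0.13). For 1448747_at it was gained without GFP control replicate 3 (-0.97, adjusted p = 0.036).

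Mdm2, the ligase that targets p53, was lower on both probe sets, but by different amounts. The probe set 1427718_a_at read 8.61, 8.22 and 8.57 in the GFP arrays and 7.45, 7.61 and 7.35 in the TFEB arrays. The groups stood 0.61 apart, and the log2 fold change was -0.995 ± 0.126 (SE, 95% interval -1.30 to -0.69), a 1.99-fold fall (limma adjusted p = 0.0025). This probe set was past the threshold in 14 of 14 alternatives, between -1.12 and -0.92. The brighter probe set 1423605_a_at read 9.28, 8.83 and 9.11 in the GFP arrays and 8.64, 8.58 and 8.54 in the TFEB arrays. Its groups were 0.18 apart, and GFP control replicate 2 was the control nearest to the TFEB arrays. The log2 fold change was -0.49 ± 0.12 (SE, 95% interval -0.77 to -0.20; limma adjusted p = 0.024), which is 1.40-fold and short of the fold limit. It passed when GFP control replicate 2 was left out, at -0.61 (adjusted p = 0.0024).

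The difference between the Mdm2 probe sets, 1423605_a_at minus 1427718_a_at, was 0.54 to 0.67 with GFP and 0.97 to 1.19 with TFEB. These ranges did not overlap. The exact permutation test gave the smallest p that 3 against 3 arrays allow (change 0.51, two-sided p = 0.10, and 0.15 after Benjamini-Hochberg adjustment over the 9 pairs of probe sets of the ligases). The same p was found for 6 of the 9 pairs, the others being all 3 pairs of Nedd4, 1421376_at against 1435350_at of Traf6, and the pair of Stub1. No source at hand says which transcripts of Mdm2 each probe set reads. When the probe sets were averaged for the gene, Mdm2 passed at -0.74 (adjusted p = 0.0054).

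Nedd4, a HECT-domain ligase that acts on membrane receptors and channels, was read by 3 probe sets that did not move alike. The probe set 1421955_a_at read 10.97, 10.66 and 10.78 in the GFP arrays and 10.43, 10.65 and 10.27 in the TFEB arrays. All TFEB arrays were below all GFP arrays, though the nearest pair was only 0.011 apart, and the difference of -0.35 ± 0.12 (SE, 95% interval -0.65 to -0.05) missed the test (limma adjusted p = 0.072). The brightest probe set, 1450431_a_at, read 11.07, 10.91 and 11.13 in the GFP arrays and 10.99, 11.16 and 11.07 in the TFEB arrays. The groups overlapped, with a difference of 0.04 ± 0.086 (SE, 95% interval -0.17 to 0.24; limma adjusted p = 0.77). The probe set 1451109_a_at read 10.62, 10.38 and 10.62 against 10.38, 10.57 and 10.40, again with overlap and a difference of -0.09 ± 0.098 (limma adjusted p = 0.49).

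Traf6, an adaptor ligase of the NF-kappaB and autophagy pathways that builds non-degradative ubiquitin chains, also differed by probe set. The brightest, 1435350_at, read 6.65, 6.62 and 6.67 in the GFP arrays and 6.74, 6.51 and 6.79 in the TFEB arrays. TFEB overexpression replicate 2 lay below the controls and the other TFEB arrays above them, for a difference of 0.04 ± 0.091 (SE, 95% interval -0.18 to 0.25; limma adjusted p = 0.78). The dimmer probe set 1421376_at read 5.90, 5.71 and 5.87 against 5.40, 5.47 and 5.56, with no overlap. Its difference of -0.35 ± 0.084 (SE, 95% interval -0.55 to -0.15) met the adjusted p (limma adjusted p = 0.021) at 1.27-fold, short of the fold limit. With 1 array left out, its adjusted p was above 0.05 for 4 of the 6 arrays, up to 0.073 without GFP control replicate 3. The third probe set, 1421377_at, read 3.87, 3.90 and 3.54 against 3.62, 3.70 and 3.41, near the low end of the array, with overlap and a difference of -0.20 ± 0.13 (limma adjusted p = 0.26).

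Stub1, a U-box ligase that takes clients from HSC70 and HSP90, was the only ligase with a positive difference on every probe set, and neither passed the threshold. The probe set 1416580_a_at read 10.79, 10.71 and 10.90 in the GFP arrays and 10.96, 10.93 and 10.84 in the TFEB arrays. The groups overlapped, with a difference of 0.11 ± 0.079 (SE, 95% interval -0.08 to 0.30; limma adjusted p = 0.32). The probe set 1434412_x_at, of a class whose probes may cross-hybridise, read 8.69, 8.60 and 8.79 against 9.21, 8.96 and 9.04. Its groups did not overlap, and its difference of 0.38 ± 0.094 (SE, 95% interval 0.15 to 0.60) met the adjusted p (limma adjusted p = 0.023) at 1.30-fold, under the fold limit. With the arrays shifted to equal medians this adjusted p was 0.060, and it was 0.068 without GFP control replicate 1, 0.063 without TFEB overexpression replicate 1 and 0.066 without TFEB overexpression replicate 3.

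**Figure D2:**
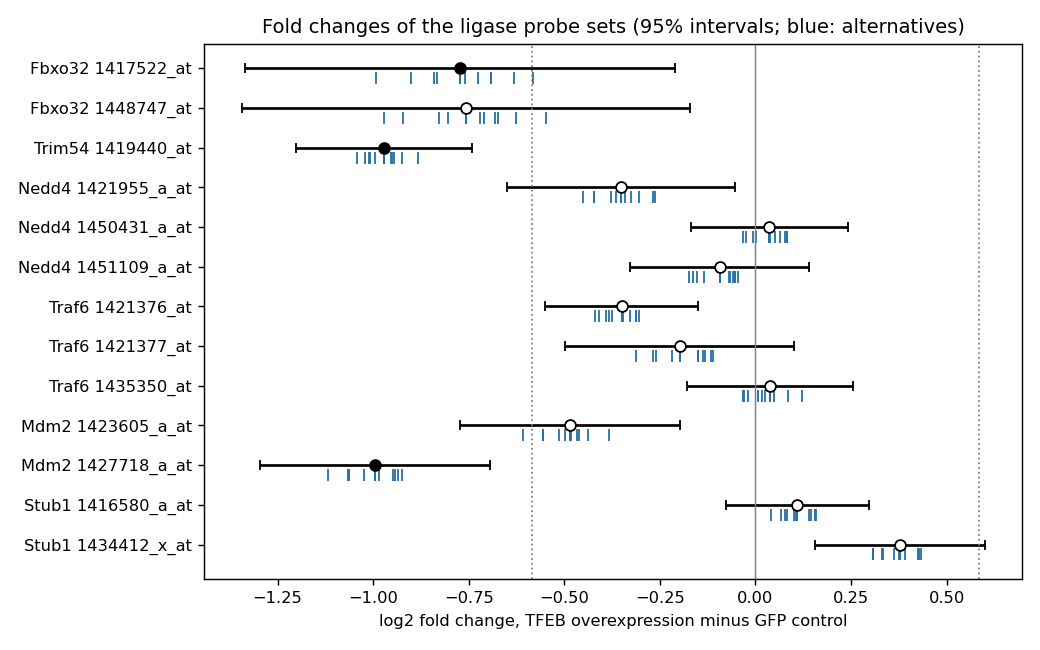
Each point gives the TFEB minus GFP difference in log2 value (horizontal axis, 3 arrays per group) of a ligase probe set, with its 95% interval, filled where it passed the threshold, small blue ticks give the values under the alternative analyses, and dotted lines mark 1.5-fold in each direction. The intervals of Trim54 (-1.20 to -0.74) and of Mdm2 1427718_a_at (-1.30 to -0.69) lie beyond the lower line, and no interval lies beyond the upper one.

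Each ligase was also set beside the genes most like it over the 6 arrays, by Pearson correlation among 1872 genes whose values ranged over at least 1 on the log2 scale. For Fbxo32 these were Arntl (r = 0.979), which encodes the circadian clock factor BMAL1, Herpud2 (r = 0.955) and Zfp39 (r = 0.953). Arntl read 7.49, 7.32 and 7.05 in the GFP arrays and 6.84, 6.84 and 6.39 in the TFEB arrays, so its replicate 3 was the lowest of each group, as for Fbxo32. Its difference was -0.60 (limma adjusted p = 0.032). For Trim54 they were Cyp27a1, the mitochondrial sterol hydroxylase (r = 0.998, log2 fold change -1.73), the kinesin gene Kif1c (r = 0.997, -1.36) and Dennd4c (r = 0.997, -0.93). The Trim54-like genes had nearly flat controls and low TFEB arrays.

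The genes closest to Mdm2, by its brighter probe set, were the chemokine gene Ccl25 (r = 0.997), the bicarbonate transporter gene Slc4a10 (r = 0.991) and Kazald1 (r = 0.991), in all of which GFP control replicate 2 was the lowest control. Nedd4 was nearest to the potassium channel gene Kcnk2 (r = 0.934), Matn2 (r = 0.929) and Tlcd1 (r = 0.870). Traf6 was nearest to Rasd2 (r = 0.892), Eml5 (r = 0.854) and Max (r = 0.816), and Stub1 to Aldh1a7 (r = 0.932), Septin11 (r = 0.929) and Colq (r = 0.914). With 6 arrays in a pair of groups and 1872 genes searched, high values of r are found for many genes, and they are given as a description.

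**Figure D3:**
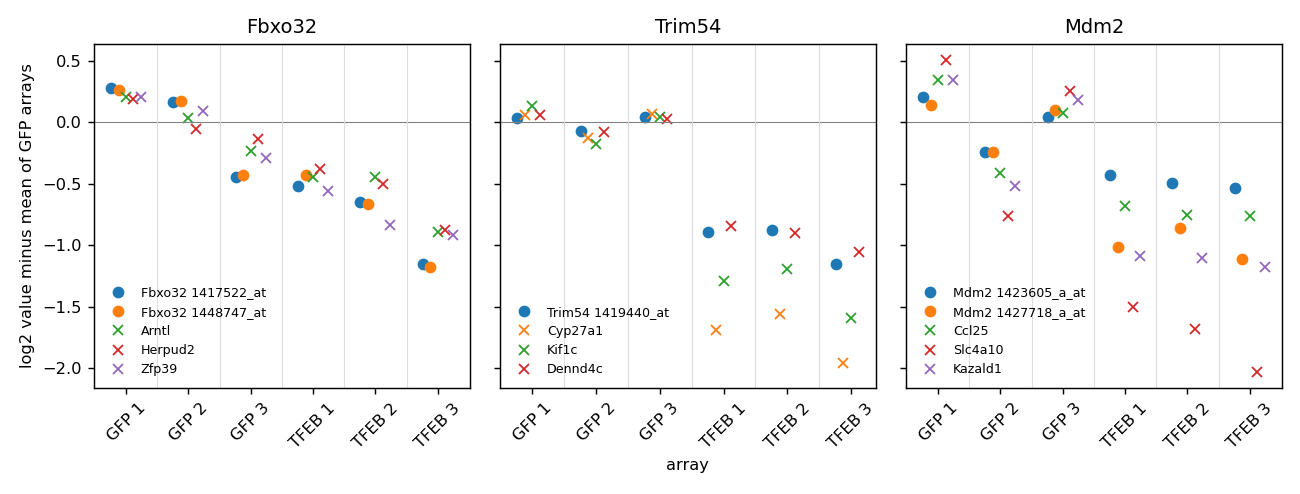
Log2 value minus the mean of the GFP arrays (vertical axis) for each array (horizontal axis) of Fbxo32, Trim54 and Mdm2 (circles, each probe set) and the 3 genes most like each (crosses). Fbxo32 and Arntl are lowest at replicate 3 within each group, and Trim54 and its 3 like genes separate the groups without overlap.

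The other enzymes of the ubiquitin pathway were counted by class. Of 25 other muscle ubiquitin ligases measured, 0 rose and 1 fell, and the median log2 fold change was -0.01, beside -0.05 over all 12393 genes, of which 8.62% were higher and 4.9% lower. The gene that fell was Cul3, the scaffold of the cullin-3 ligases. It read 11.59, 11.39 and 11.51 in the GFP arrays and 11.02, 10.89 and 10.63 in the TFEB arrays, which is a change of -0.65 ± 0.12 on the log2 scale (SE, adjusted p by limma = 0.0077). It was short of the fold limit, at -0.54, when TFEB overexpression replicate 3 was left out, and then no gene of the list fell. Without GFP control replicate 2, 2 of these ligases were higher (Birc3 and Cbl) and 2 lower (Cul3 and Fbxo31). Fbxo31, at -0.58 with all arrays, lay just short of the fold limit, and it passed as well when TFEB overexpression replicate 1 or 2 was left out.

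Of 27 ubiquitin conjugating enzymes, 2 rose and 0 fell (median 0.02), beside 8.62% and 4.9% of all genes. Ube2e2 read 5.95, 5.84 and 5.97 in the GFP arrays and 6.89, 6.75 and 7.06 in the TFEB arrays, a rise of 1.97-fold (0.98 ± 0.099 SE, limma adjusted p = 0.0013). Ube2o, which also has ligase activity, read 7.13, 6.78 and 6.96 against 7.69, 7.42 and 7.65, a rise of 1.54-fold (limma adjusted p = 0.0094). The groups did not overlap for either gene. Ube2o dropped under 1.5-fold when GFP control replicate 2 (0.54) or, in turn, TFEB overexpression replicate 1 (0.57) was left out, and with equal medians it stood at 0.56. The number of conjugating enzymes that were higher was 3 without the former array and 1 without the latter. Ubiquitin and its activating enzymes had 2 measured genes, Uba3 (-0.34 ± 0.11 SE, limma adjusted p = 0.063) and Uba7 (0.30 ± 0.34 SE, limma adjusted p = 0.52), and without GFP control replicate 2 Uba7 was past the threshold.

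In the core of the SCF and cullin complexes, 1 of 18 genes was higher and 0 were lower, beside 8.62% and 4.9% of all genes, the median being -0.18. The gene was Skp2, the F-box protein of cell cycle control, which read 4.11, 4.55 and 4.04 in the GFP arrays and 5.15, 5.03 and 5.37 in the TFEB arrays. Its rise was 1.93-fold (0.95 ± 0.16 SE, limma adjusted p = 0.0059), at a low level of signal, while the average of its probe sets gave 0.46. When either GFP control replicate 2 or TFEB overexpression replicate 1 was left out, 2 genes were higher (Skp2 and Cand1) and 1 was lower (Cops4). Among 15 deubiquitinases, which remove ubiquitin, 1 rose and 1 fell (median -0.14), beside the same shares of all genes. Uchl1, a hydrolase best known from neurons, read 5.82, 5.96 and 5.80 against 7.73, 7.51 and 7.42, a rise of 3.24-fold (1.70 ± 0.10 SE, limma adjusted p = 0.00041). Usp9x read 9.92, 9.56 and 9.82 against 9.14, 8.97 and 8.88, a fall of 1.70-fold (-0.77 ± 0.12 SE, limma adjusted p = 0.0045), while the average of its probe sets gave -0.54. The number of deubiquitinases that were lower was 2 when GFP control replicate 2 was left out, and also when replicate 1 or 3 of TFEB overexpression was.

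**Figure D4:**
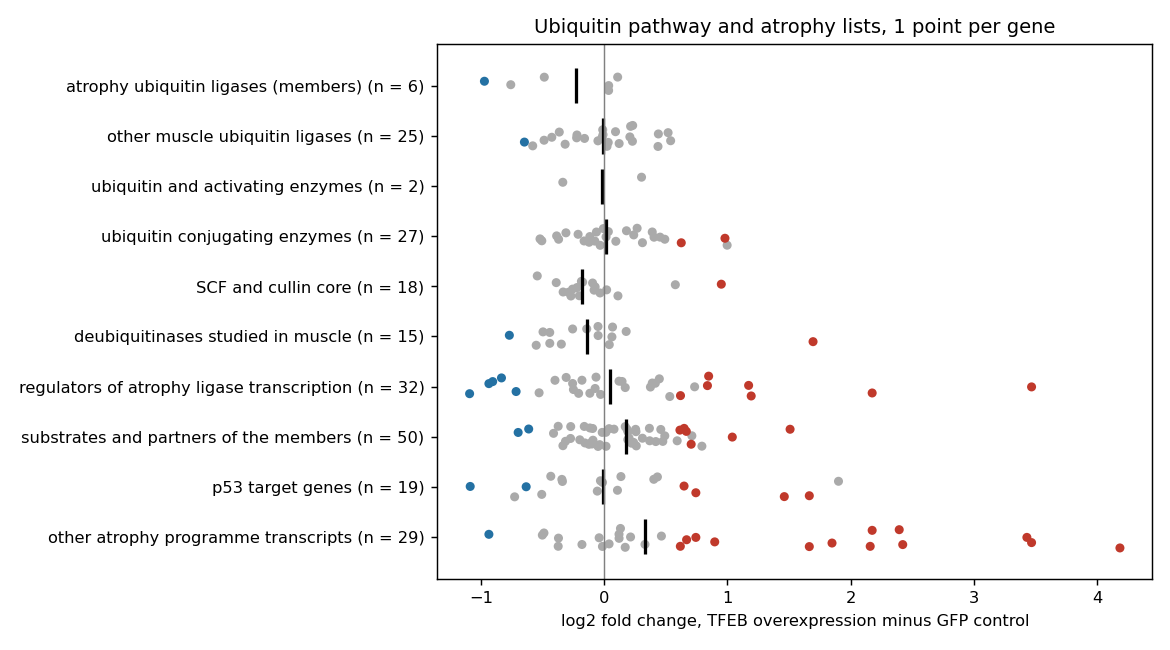
The TFEB minus GFP difference in log2 value (3 arrays per group) is plotted for each measured gene of the ubiquitin and atrophy lists, red for genes past the threshold and higher, blue for those lower and grey for the rest, with the list median as a black bar; the top line holds the 6 measured ligases. The medians lie close to 0 for the enzyme lists (-0.18 to 0.02) and at 0.33 for the other transcripts of the atrophy programme.

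Factors known to regulate the atrophy ligases moved in both directions. Of 32 measured, 7 rose and 5 fell (median 0.05), beside 8.62% and 4.9% of all genes. By the two-tailed test of the alternatives, after Benjamini-Hochberg adjustment, 3 were higher. Myog, the myogenic factor that induces Fbxo32 and Trim63 after denervation, read 5.65, 5.69 and 5.88 in the GFP arrays and 8.87, 9.17 and 9.59 in the TFEB arrays, a rise of 11.1-fold (3.47 ± 0.18 SE, limma adjusted p = 0.00029). Dach2, which is known to repress Myog, read 5.19, 5.53 and 5.31 against 4.42, 4.22 and 4.11, a fall of 2.13-fold (limma adjusted p = 0.0017). In both genes the groups lay far apart, though Dach2 was at a low level of signal and was removed by the brightness filter.

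Akt1, a kinase that keeps FoxO factors out of the nucleus, rose 2.25-fold (1.17 ± 0.11 SE, limma adjusted p = 0.0011), and its TFEB arrays (9.38 to 9.73) lay above its GFP arrays (8.26 to 8.44). Akt2 of the same list, named after its values were seen, did not pass (-0.12 ± 0.071 SE, limma adjusted p = 0.25). Klf15, a target of the glucocorticoid receptor, fell 1.91-fold (-0.94 ± 0.12 SE, limma adjusted p = 0.0029). Tnfrsf12a, the receptor of the cytokine TWEAK, rose 2.29-fold (limma adjusted p = 0.0019) and the transcription factor gene Runx1 4.52-fold (limma adjusted p = 0.0078). The TGF-beta signal gene Smad3 fell 1.87-fold (limma adjusted p = 0.0045) and the stress kinase gene Mapk14, known as p38 alpha, 1.64-fold (limma adjusted p = 0.0038). The controls of Runx1 lay far apart, at 4.56, 6.21 and 4.99 in GFP control replicates 1 to 3, against 7.40, 7.31 and 7.58 with TFEB. Runx1 missed the adjusted p in the two-tailed test (0.054).

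The FoxO genes, named here after their values were seen, did not pass. Foxo3 was at 0.39 ± 0.098 (SE, limma adjusted p = 0.024), Foxo1 at 0.12 ± 0.11 (limma adjusted p = 0.44) and Foxo4 at -0.31 ± 0.14 (limma adjusted p = 0.13). FoxO proteins are controlled mainly by phosphorylation, which the arrays do not read.

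Among 50 measured substrates and partners of the ligases, 6 rose and 2 fell (median 0.18), beside 8.62% and 4.9% of all genes. The LIM-domain genes Fhl2 and Fhl1 rose, Fhl2 from 6.24, 6.35 and 6.56 in the GFP arrays to 7.09, 7.09 and 7.08 in the TFEB arrays (1.63-fold, limma adjusted p = 0.0029) and Fhl1 by 1.59-fold (limma adjusted p = 0.0048). Fhl2 protein and filamin C are known targets of Trim54. Flnc, the gene of filamin C, read 10.37, 10.72 and 10.47 against 11.29, 10.99 and 11.13, a rise of 1.53-fold (limma adjusted p = 0.011). Flnc dropped under 1.5-fold, to 0.54, when either GFP control replicate 1 or TFEB overexpression replicate 1 was left out.

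Notch1, whose protein Nedd4 can act on, rose 2.06-fold (1.04 ± 0.14 SE, limma adjusted p = 0.0028). Tcap, the titin cap that MuRF proteins bind, read 13.35, 13.35 and 13.42 in the GFP arrays and 12.61, 12.86 and 12.55 in the TFEB arrays, a fall of 1.62-fold (limma adjusted p = 0.0033). Tab2, a partner of Traf6 in signalling, fell 1.53-fold (limma adjusted p = 0.0015) and was just short of the fold limit when TFEB overexpression replicate 2 was left out (-0.58). The number higher was lowest, at 3, when TFEB overexpression replicate 1 was left out and highest, at 9, when GFP control replicate 2 was.

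Targets of p53, the factor that Mdm2 holds down, were mixed, with 4 of 19 higher and 2 lower, beside 8.62% and 4.9% of all genes, and a median of -0.01. Cdkn1a, the cell cycle inhibitor p21, read 7.75, 8.30 and 7.78 in the GFP arrays and 9.36, 9.48 and 9.98 in the TFEB arrays, a rise of 3.17-fold (1.67 ± 0.21 SE, limma adjusted p = 0.0024). The polo-like kinase gene Plk2 rose 2.75-fold (limma adjusted p = 0.00072), the sestrin gene Sesn1 1.57-fold (limma adjusted p = 0.0013) and Gadd45a 1.68-fold (limma adjusted p = 0.0035). The DNA polymerase gene Polk fell 2.12-fold (limma adjusted p = 0.0037) and Ei24 1.55-fold (limma adjusted p = 0.0031). Sesn1 was short of the fold limit with equal medians (0.58), and so was Ei24 when TFEB overexpression replicate 3 was left out (-0.57), which left 1 gene lower. Several of these genes are also known to respond to denervation or to FoxO.

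Of 29 other transcripts of the atrophy programme, 13 rose and 1, Klf15, fell, beside 8.62% and 4.9% of all genes, and the median was 0.33. The acetylcholine receptor genes Chrna1 and Chrng, which muscle switches on after denervation, rose 5.36-fold (2.42 ± 0.097 SE, limma adjusted p = 0.00025) and 3.60-fold (1.85 ± 0.14 SE, limma adjusted p = 0.00065). Chrna1 read 7.80, 7.76 and 7.90 in the GFP arrays and 10.16, 10.14 and 10.41 in the TFEB arrays. Myog and Cdkn1a, given above, were the other rises among the 4 of smallest p. By size, Sln (4.19) and Ankrd1 (3.43), named after their values were seen, stood beside Myog (3.47). The number that rose was 10 to 13 with 1 array left out. This list shares Myog, Chrna1, Chrng and other genes with the markers of embryonic and regenerating muscle, all of which rose.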

How the data were processed

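Expression was measured by Affymetrix array in muscle of 6 mice, 3 per group, grouped by the labels' titles. The values are log2 values as the authors deposited them, 1 per probe set and array, from 2.20 to 14.4. The submitters' processing notes name affy and RMA (background correction, quantile normalization and probe set summary), both without a version. That the scale is log2 was inferred from the range of the values. Quantile normalization partly removes a change of most transcripts in 1 direction, and RMA compresses changes of very dim and very bright probe sets. The number of arrays limits the precision. No probe set was tested against background.

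Of 22690 probe sets, the 64 Affymetrix controls were left out and 22626 were tested with limma 3.58.1 under R 4.3.3 (a 2-group linear model by lmFit, then eBayes; two-sided; Benjamini-Hochberg adjustment over all of them). The fit was tested on simulated data. The call, an adjusted p under 0.05 with at least 1.5-fold change, follows the limits in the study's legend to its gene list, since its array methods were not part of the text used here. Platform annotation gave 1 symbol to 20380 probe sets, several to 691 and none to 1555. The probe set with the highest mean stood for a gene, and every probe set of a ligase was reported. A fold change is TFEB overexpression over GFP control. Summaries were made in Python 3.11.15.

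The ligases and the gene lists (276 entries in 10 lists, of which 232 were measured) were chosen with earlier results of these data known. Named genes are all ligases, up to 4 genes of smallest p past the threshold in each direction of a list (where none passed, the 2 of smallest p) and, for each ligase, the 3 genes most correlated with it. Of the marker classes, counts and mean levels are given. Markers of 12 cell classes were counted. Besides those described with the results, 2 of 4 neutrophil, 3 of 6 endothelial and 3 of 5 satellite cell markers were higher, and none of the measured T cell, B cell, adipocyte, Schwann cell and red cell markers passed. In GFP control replicate 2 the T cell mean was 6.60, against 5.27 and 5.35 in replicates 1 and 3 and 5.55 to 5.82 with TFEB. The B cell mean of that array was 5.08, against 4.40 and 4.48 in replicates 1 and 3 and 4.33 to 4.59 with TFEB. The 15 fast fibre contractile genes used for a scaling had a median of -0.06, and none passed. Alternatives covered scaling (equal medians, repeated quantile normalization, fast fibre genes), a brightness filter at the 40th percentile, array weights, an eBayes trend, a two-tailed t-test as named in the paper's general statistics, the replicate number as a block, the probe set taken per gene, and leaving out each array.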

Additional observations from a re-analysis of the deposited data

How the results depend on the processing

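Trim54 passed in all 16 alternatives and Stub1 in none. The number of ligase genes past the threshold, 1 of 6 with all arrays, was 2 with equal medians, the brightness filter, the eBayes trend, the mean of the probe sets or the replicate block, 3 with the probe set of smallest p, and 1 to 2 with an array left out. Among all 12393 genes, 1675 were called with all arrays. The number was 1739 with equal medians, 1466 of 8034 with the brightness filter, 1685 with the eBayes trend and 1510 with the mean of the probe sets. It was 1671 with the replicate block, 2166 with the probe set of smallest p, and 1343 to 2318 with an array left out. Fbxo32 passed with equal medians (-0.83), the brightness filter, the eBayes trend or the replicate block (-0.76 each, adjusted p = 0.0078 with the block) and the probe set of smallest p (-0.77). It ran from -0.97 to -0.55 with an array left out, and its adjusted p from 0.0078 to 0.15 over the alternatives. Mdm2 passed with the mean of its probe sets (-0.74) and the probe set of smallest p (-0.995), and ran from -0.61 to -0.38 with an array left out. The differences of Nedd4 and Traf6, 0.04 each and never past the threshold, changed sign. Nedd4 was -0.033 with equal medians, -0.14 with the mean of the probe sets and -0.35 with the probe set of smallest p, and Traf6 was -0.033 with equal medians, -0.031 with repeated quantile normalization, -0.17 with the mean and -0.35 with the smallest p. With an array left out, Nedd4 ran from -0.025 to 0.082 and Traf6 from -0.019 to 0.12. The second Fbxo32 probe set (1417522_at) also lost its call with array weights (-0.69), fast fibre scaling (-0.72) and the two-tailed test (adjusted p = 0.14). The cause of these changes was not tested.

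Same-numbered replicates deviated from their group means with correlations of 0.42, 0.17 and -0.23. The labels do not say whether the numbers pair the arrays, and these values cannot decide it. With the replicate block, the SE of Fbxo32 1448747_at was 0.076, against 0.25 without it, and that of Trim54 was 0.10, against 0.096. Of the 6 arrays, 3 correlated best with their own number in the other group, and with the replicate block 3052 probe sets were called. Over all probe sets 2263 to 4222 were called in the alternatives, against 3082. The share of called genes that were higher was 63.8%, 54.2% with equal medians and 70.4% with fast fibre scaling. With the probe set of smallest p, the numbers lower became 5 for other ligases, 3 for conjugating enzymes and for the SCF core, 4 for deubiquitinases and 9 for regulators. That choice also raised the number lower among all 12393 genes, from 607 to 966. The median of p53 targets ran from -0.08 to 0.08. With 3 arrays per group, the SE of the ligase probe sets ran from 0.079 to 0.25.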

Other observations

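Across the 13 ligase probe sets, the pattern of Trim54 over the 6 arrays was nearest to that of Mdm2 1427718_a_at (Pearson r = 0.981), a value that holds the group difference both share. After the group means were taken off r was 0.723, and Nedd4 1421955_a_at (0.788) and Stub1 1416580_a_at (0.782) were nearer to Trim54. For Trim54 and Fbxo32 1417522_at these values were 0.833 and 0.462. The dimmest ligase probe set, Traf6 1421377_at, followed Fbxo32 1417522_at (r = 0.920, and 0.937 after the group means were taken off), with replicate 3 the lowest array of each group in both. These are descriptions over 6 arrays, for which no test was run.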
